A study of Mus musculus with 16 samples.

Results

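The 37 genes described here carry out the oxidation of fatty acids in mitochondria and peroxisomes. They were taken by name from the gene expression table of a mouse liver study, where all 37 were present once each among 22612 genes. Of these, 18 encode mitochondrial proteins and 10 encode peroxisomal proteins. Counted as of both organelles were 6: Acad11, Eci2, Ech1, Crat and Amacr, known in both or not settled between them, and Slc27a2, found at several membranes. Counted as others were 3: Acsl1 and Acsl5, also found at several membranes, and Slc22a5, at the cell membrane. The rule that lists them uses no measured value, but it was drawn up with earlier results of these data known.

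Fatty acids are activated to coenzyme A esters, carried into mitochondria as carnitine esters and shortened there by repeated rounds of dehydrogenation, hydration, a further dehydrogenation and thiolytic cleavage. Peroxisomes shorten very long, branched and dicarboxylic chains and pass the products on, partly as carnitine esters. In liver, many of these genes are known targets of PPAR alpha, a nuclear receptor that binds fatty acids and is active in fasting, and the acetyl-CoA they produce feeds the synthesis of ketone bodies.

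RNA was sequenced from livers of male C57BL/6 mice, bought at 7 weeks of age and kept for 1 week before the diets began, with 6 mice stated per group and 4 libraries per group here. Chow with 11% of its energy from fat, or a high-fat diet with 58%, was fed for 16 weeks. The chow-alternating group received the high-fat diet and chow in turn at intervals of 2 weeks, and the ketogenic-alternating group received it in turn with a ketogenic diet with 90.5% of its energy from fat, over the same 16 weeks. All livers were taken after an overnight fast, which is itself a state of fatty acid oxidation and was shared by the chow controls. The labels do not say which diet of an alternating pair was eaten last, and do not tie libraries to separate animals. Spread between libraries, on which all p-values rest, may therefore be technical. No group ate the ketogenic diet alone.

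Levels are in TPM, a unit of relative transcript number that corrects for gene length and sums to 1000000 in each library. How deeply each library was sequenced is unknown, as TPM holds no read number. Between 10575 and 11695 genes reached 1 TPM per library, and the 20 highest genes held 27.08% to 38.82% of all TPM. The libraries over 33% were chow replicates 2 and 3 and high-fat replicates 1 and 2, and mitochondrially encoded genes held 8.61% to 18.37%, most in chow replicate 3. Markers of hepatocytes were abundant in every library, summing to 79540 to 116800 TPM. Each of the 10 reached 1 TPM in at least 1 library of every group. In whole liver, fewer cells of a type and less RNA per cell cannot be told apart.

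Promoter sequences of 31 of the 37 members were found in RefSeq's table for GRCm38.p6, 16 of 18 mitochondrial and 8 of 10 peroxisomal ones. Acadm and Cpt1a are shown because they head the differences described further on. Ehhadh is shown as the member whose mean, in TPM as deposited, was not highest in the ketogenic-alternating group. Each is the 250 bases before RefSeq's start of transcription, 5′ to 3′ on the gene's strand, with the motif AGGTCA, the unit of nuclear receptor binding sites, in capitals where it occurs on either strand (TGACCT when on the other strand).
Acadm, chr3:153944644-153944893, minus strand: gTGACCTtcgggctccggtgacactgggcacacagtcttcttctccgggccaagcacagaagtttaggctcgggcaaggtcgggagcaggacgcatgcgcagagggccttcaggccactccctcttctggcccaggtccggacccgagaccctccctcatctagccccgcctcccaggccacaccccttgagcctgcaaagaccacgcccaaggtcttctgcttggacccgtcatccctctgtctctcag
Cpt1a, chr19:3323051-3323300, plus strand: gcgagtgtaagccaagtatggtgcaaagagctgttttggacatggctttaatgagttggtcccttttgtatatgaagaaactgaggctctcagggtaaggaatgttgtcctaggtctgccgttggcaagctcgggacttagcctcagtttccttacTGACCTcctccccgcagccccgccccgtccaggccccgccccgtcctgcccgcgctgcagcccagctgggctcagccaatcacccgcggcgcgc
Ehhadh, chr16:21787835-21788084, minus strand: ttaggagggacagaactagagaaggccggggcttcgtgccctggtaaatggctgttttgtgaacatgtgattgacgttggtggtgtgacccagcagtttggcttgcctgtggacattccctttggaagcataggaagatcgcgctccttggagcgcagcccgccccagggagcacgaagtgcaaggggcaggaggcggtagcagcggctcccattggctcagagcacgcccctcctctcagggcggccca
GENCODE's annotation of Cpt1a begins upstream of the window shown, at position 3322334, so all of that window lies inside the annotated gene. It falls in the first intron of the transcript that begins there, and its last bases overlap the first exon of another transcript. Windows of some other members counted below also lie inside their annotated genes, among them those of Scp2, Slc27a2, Acsl5, Etfdh and Eci2. Hadha and Hadhb, which encode the subunits of the mitochondrial trifunctional protein, start head to head on opposite strands with 85 bases between their annotated starts on chromosome 5 (chr5:30155163-30155247). These bases are shown on the plus strand, in the direction of Hadhb, with the GC box GGGCGG in capitals.
Hadha to Hadhb: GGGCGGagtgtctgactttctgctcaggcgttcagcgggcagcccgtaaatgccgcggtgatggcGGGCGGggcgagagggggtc
The response element of PPAR alpha, written as AGGTCANAGGTCA, was found on either strand in 0 of 31 member promoters and in 0.0335% of all 32851 promoters of the table, and its relaxed form AGGNCANAGGNCA in 0 of 31 and 0.338%. The single unit AGGTCA, which the exact but not always the relaxed form contains, occurred in 6 of 31 (19.4%) against 14% of all promoters. The 6 were Acadm, Acadvl, Cpt1a, Echs1, Scp2 and Slc27a2. The GC box GGGCGG, on either strand (CCGCCC), occurred in 21 of 31 (67.7%) against 32.7%, CCAAT in 13 (41.9%) against 33.8% and TATAAA in 0 against 12.4%. The median GC content was 59.6% in the 33 promoters of members and 52.4% in all promoters. A member counted once if any of its promoters held the motif, whereas the share over all is per promoter. Hadha and Hadhb were both counted, though their windows share most of their bases. The motif counts describe letters in this window only, since known elements of such genes also lie outside it.

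Seen over all 4 diets, the group mean was highest in the ketogenic-alternating livers for 36 of 37 members, all 18 mitochondrial and 9 of 10 peroxisomal. For 58.6% of 11450 genes at 1 TPM or more in at least 4 libraries the same group was highest. Ehhadh, the peroxisomal bifunctional enzyme, was highest in chow. Chow had the lowest mean for 20 members, chow-alternating for 10 and high-fat for 7. The summed level of the 18 mitochondrial members was 4433 ± 504 TPM (SD, n = 4) in chow, 4791 ± 499 in high-fat, 4543 ± 302 in chow-alternating and 6217 ± 389 in ketogenic-alternating livers. The 10 peroxisomal members summed to 4934 ± 1130, 5179 ± 862, 4297 ± 535 and 6806 ± 226 TPM in the same order. The lowest ketogenic-alternating library lay above every library of the other 3 groups in both sums, with 5877 TPM against at most 5336 for the mitochondrial and 6500 against at most 6217 for the peroxisomal sum. With median ratio scaling of the libraries, tried after the data were seen, this separation was lost. The mitochondrial sum was then 4856 to 6320 in ketogenic-alternating and 4766 to 5390 in high-fat livers, and at most 4840 in the others. The peroxisomal sum was 5355 to 6818 in ketogenic-alternating livers, overlapping high-fat (up to 5726) and chow (up to 5356), and at most 4794 in chow-alternating ones. All 37 members together took 0.943% to 1.72% of a library's TPM.

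The order depended on how libraries were scaled. Most other genes tested were also higher in the ketogenic-alternating libraries, 8752 of 11002 against chow-alternating. The median difference of all genes tested was 0.19 against chow-alternating, 0.15 against chow and 0.21 against high-fat on the log2(TPM + 1) scale. When each library was divided by its median ratio to the others, these medians moved to 0.02, 0.01 and 0.02, and the ketogenic-alternating group was highest for 27 of 37 members against 31.6% of genes. Under that scaling Slc22a5, Cpt2, Eci2 and Ehhadh were highest in chow, Slc27a2, Acsl5, Echs1, Acaa2 and Abcd2 in high-fat, and Etfb in chow-alternating livers.

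**Figure D1:**
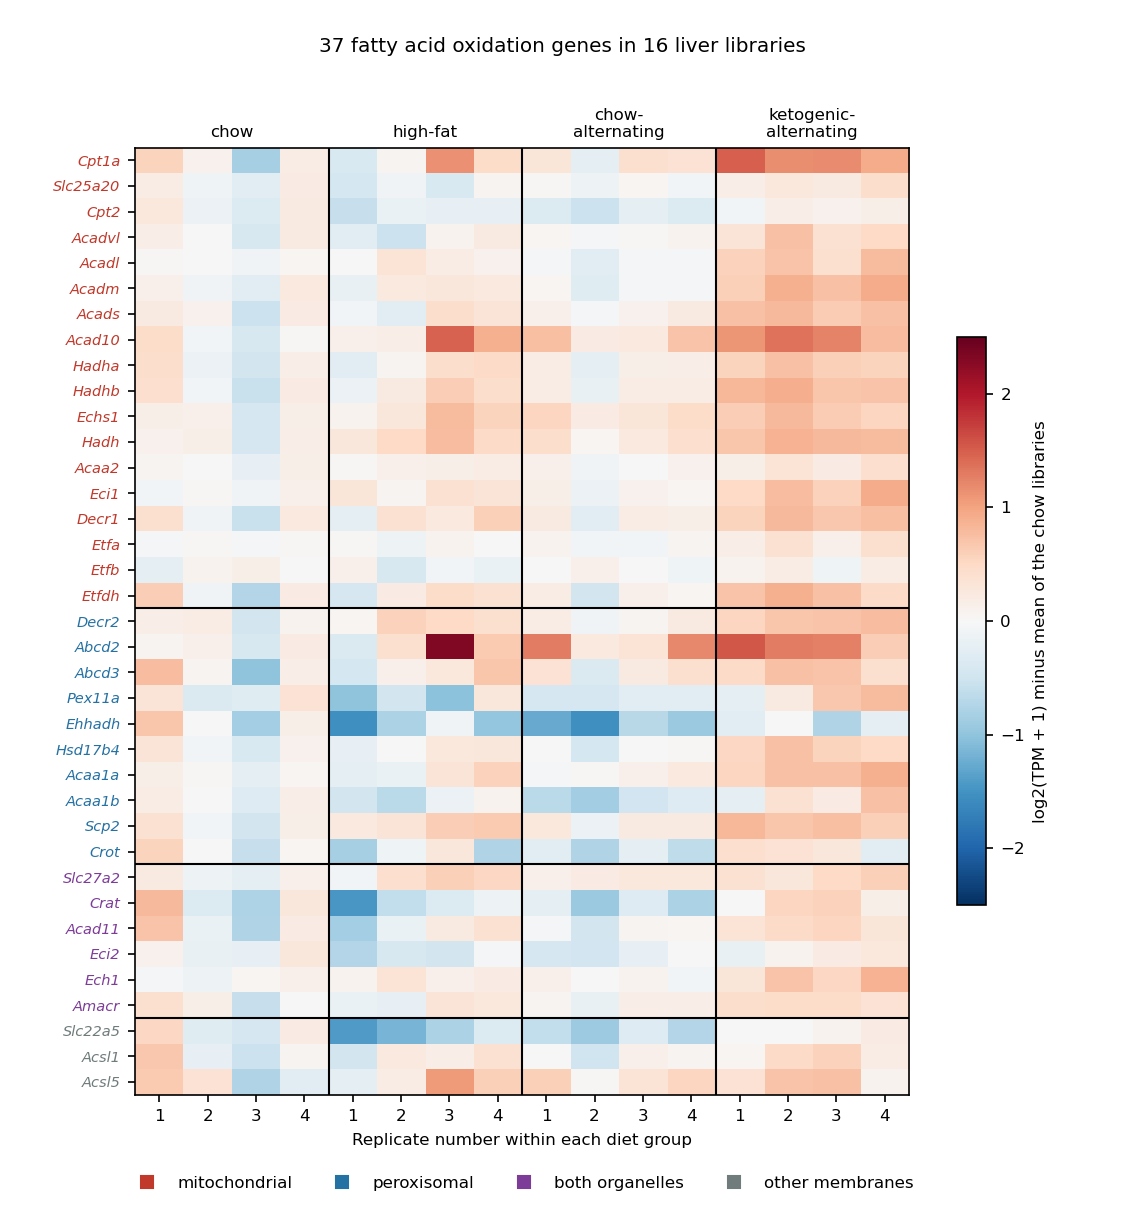
Each row is 1 of 37 genes and each column 1 of 16 libraries. Colour gives log2(TPM + 1) minus the mean of the 4 chow libraries, red for higher and blue for lower. The 4 ketogenic-alternating columns are red in nearly all rows, whereas Ehhadh, Slc22a5 and Crat are mostly blue in the high-fat and chow-alternating columns. With median ratio scaling 27 in place of 36 members are highest in the ketogenic-alternating group.

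**Figure D2:**
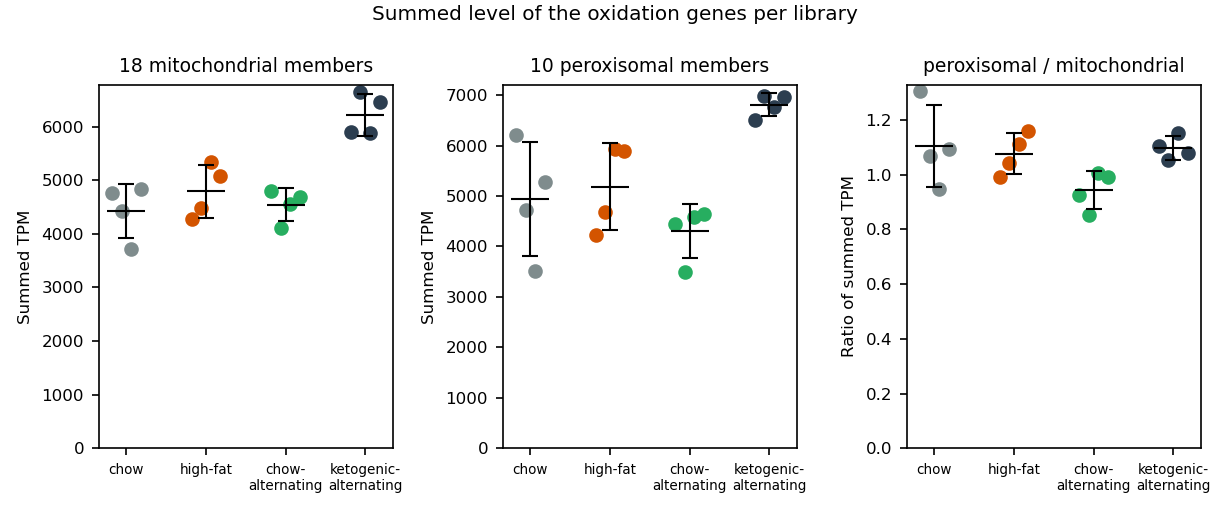
Summed TPM of the 18 mitochondrial and the 10 peroxisomal members, and the ratio of both sums, in each library (points) with the group mean and SD (bars, n = 4). The ketogenic-alternating libraries, 5877 to 6638 TPM for mitochondrial and 6500 to 6988 TPM for peroxisomal members, lie above all others in both sums, though with median ratio scaling they overlap the high-fat libraries in both and chow in the peroxisomal sum. The ratio overlaps between all groups except that chow-alternating lies below ketogenic-alternating.

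A ketogenic diet and chow, each as the partner of the high-fat diet, are set against each other by the 2 alternating groups. Here 22 of 37 members rose and 0 fell, where 5.04% of 11002 genes passed the test (4.31% higher and 0.727% lower). A member was said to rise or fall at a Benjamini-Hochberg adjusted p below 0.05 in limma over all genes tested, with no limit on the fold. The 22 were 12 of 18 mitochondrial members, 6 of 10 peroxisomal members, 3 of 6 counted as of both organelles (Crat, Acad11 and Ech1) and 1 of 3 others (Slc22a5). None reached a fold change of 2, as 0.782% of all genes did. The median log2 fold change was 0.58 over the members and 0.19 over all genes, and 37 of 37 members were above 0, or 35 with median ratio scaling, where Acsl5 and Etfb were below. In 30 members the groups did not overlap, all higher in ketogenic-alternating livers, as was so for 14.7% of all genes.

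Among genes of entry and the carnitine shuttle, Cpt1a had the largest difference. This outer membrane enzyme, carnitine palmitoyltransferase, makes the acyl-carnitines and is the regulated step of mitochondrial import. Its level was 349.9, 278, 281 and 235 TPM in the ketogenic-alternating libraries and 152, 106, 163 and 159 TPM in the chow-alternating ones. The lowest ketogenic-alternating library was thus above the highest chow-alternating one, and the log2 fold change was 0.98 (SE 0.155, adjusted p = 0.00914). Slc22a5, the carnitine importer of the cell membrane, had 26.8, 26.2, 28.1 and 30.5 TPM against 16.99, 13.6, 21.1 and 15.5 TPM, again without overlap (log2 fold change 0.71, SE 0.129, adjusted p = 0.015). Cpt2, which returns the acyl group to coenzyme A inside, and Crat, the acetyltransferase for short chains, rose as well. The carrier between both, Slc25a20, did not pass, with 156 ± 13.7 against 126 ± 6.78 TPM (adjusted p = 0.069). Neither did the fatty acid importer Slc27a2 (adjusted p = 0.137) or the acyl-CoA synthetases Acsl1 (adjusted p = 0.138) and Acsl5 (adjusted p = 0.702).

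The acyl-CoA dehydrogenases, which start each round of oxidation and differ in the chain length they take, rose in 5 of 6 cases. Acadm, the medium-chain enzyme, had the smallest adjusted p of all members. It was at 489.9, 601, 540.5 and 623 TPM in ketogenic-alternating and 337, 264, 318 and 318 TPM in chow-alternating livers, and its log2 fold change was 0.86 with an SE of 0.107 (adjusted p = 0.00329). Acadl, the long-chain enzyme, was at 286, 313, 253 and 331 against 189, 159, 185 and 187 TPM (log2 fold change 0.71, SE 0.103, adjusted p = 0.00643). Acads, the short-chain enzyme, was at 224, 238, 211 and 223 against 148, 129.6, 145 and 158 TPM (log2 fold change 0.63, SE 0.0855, adjusted p = 0.0051). In all 3 genes every ketogenic-alternating library exceeded the highest chow-alternating one. Acadvl, for very long chains at the inner membrane, and Acad11 also rose, whereas Acad10 had 23.3 ± 4.04 against 14.6 ± 3.14 TPM and did not pass (adjusted p = 0.0517).

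Of the later steps, both subunits of the trifunctional protein rose. Hadhb, the thiolase subunit, had 225, 237, 205 and 205 TPM against 143, 111, 144 and 144 TPM (log2 fold change 0.69, SE 0.105, adjusted p = 0.00775). Hadha, the subunit with the hydratase and long-chain dehydrogenase, had 208 ± 11.5 against 143 ± 19.4 TPM, and Hadh, the dehydrogenase for shorter chains, 441 ± 22.4 against 313 ± 38.3 TPM. The 85 bases shown lie between Hadha and Hadhb. Both genes had lower values in chow-alternating replicate 2 than in the other 3 libraries of that group, as did 32 of 37 members and 36.2% of genes. The short-chain hydratase Echs1 (adjusted p = 0.111) and the mitochondrial thiolase Acaa2 (adjusted p = 0.125) did not pass, although neither gene's groups overlapped.

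Unsaturated chains need isomerases and reductases. Eci1, the mitochondrial isomerase, was at 286, 345, 301 and 385 TPM in ketogenic-alternating and 224, 183, 219 and 209 TPM in chow-alternating livers (log2 fold change 0.65, SE 0.111, adjusted p = 0.0116). The mitochondrial dienoyl-CoA reductase Decr1 was at 127, 152, 137 and 146 against 100.4, 70.4, 98.1 and 95.2 TPM (log2 fold change 0.63, SE 0.121, adjusted p = 0.0181). In peroxisomes the counterpart Decr2 was at 235, 261, 266 and 277 against 183, 152, 168 and 189 TPM (log2 fold change 0.58, SE 0.0938, adjusted p = 0.00914). Both reductases, 1 in each organelle, thus rose without overlap. The dienoyl-CoA isomerase Ech1 rose too, and Eci2, the isomerase found in both organelles, overlapped between groups (adjusted p = 0.103). Electrons of the dehydrogenases pass through the flavoprotein encoded by Etfa and Etfb to the oxidoreductase Etfdh. Only Etfdh of these 3 passed, with 271 ± 30.7 against 165 ± 30.4 TPM, while Etfa (adjusted p = 0.111) and Etfb (adjusted p = 0.559) did not, and Etfb was below 0 with median ratio scaling.

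Among peroxisomal enzymes of the cycle, Acaa1a had 312, 356, 358 and 397 TPM against 207, 218, 234 and 257 TPM (log2 fold change 0.63, SE 0.1, adjusted p = 0.00899). Acaa1a and Acaa1b are the 2 thiolases of this pathway, on chromosome 9, and 1228 of 1272 bases of their coding sequences are identical (96.5%), so the division of reads between them is uncertain. Hsd17b4, the D-bifunctional protein for branched and very long chains, had 363, 423, 376 and 360.3 against 253, 186, 256 and 261 TPM (log2 fold change 0.68, SE 0.117, adjusted p = 0.012). Scp2, which encodes a sterol carrier and a thiolase for branched chains, was the most abundant member in every library. It had 3207, 2885, 3028 and 2697 against 2146, 1623, 2093 and 2103 TPM (log2 fold change 0.58, SE 0.111, adjusted p = 0.0186). All 4 ketogenic-alternating libraries lay above the 4 chow-alternating ones in each of these 3 genes. Acaa1b and Ehhadh rose as well, whereas Crot, which makes carnitine esters for export, Amacr, the racemase of branched chains, Pex11a, a factor of peroxisome division, and the transporters Abcd2 and Abcd3 did not pass (adjusted p = 0.0505, 0.051, 0.0554, 0.313 and 0.126).

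How many members pass depends on single libraries and on the scaling. Leaving out ketogenic-alternating replicate 2 left 10 called members and leaving out chow-alternating replicate 2 left 13, against 26 without ketogenic-alternating replicate 4. With median ratio scaling 4 members were called (Cpt1a, Acadm, Acads and Hadhb), and in 1 fit of all 16 libraries also 4 (Acadl, Acadm, Eci1 and Ech1). Acadm was the member called in both of these fits, and it passed in all 8 fits that left out 1 library (adjusted p from 0.00246 to 0.0162). No called member changed direction in any alternative.

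**Figure D3:**
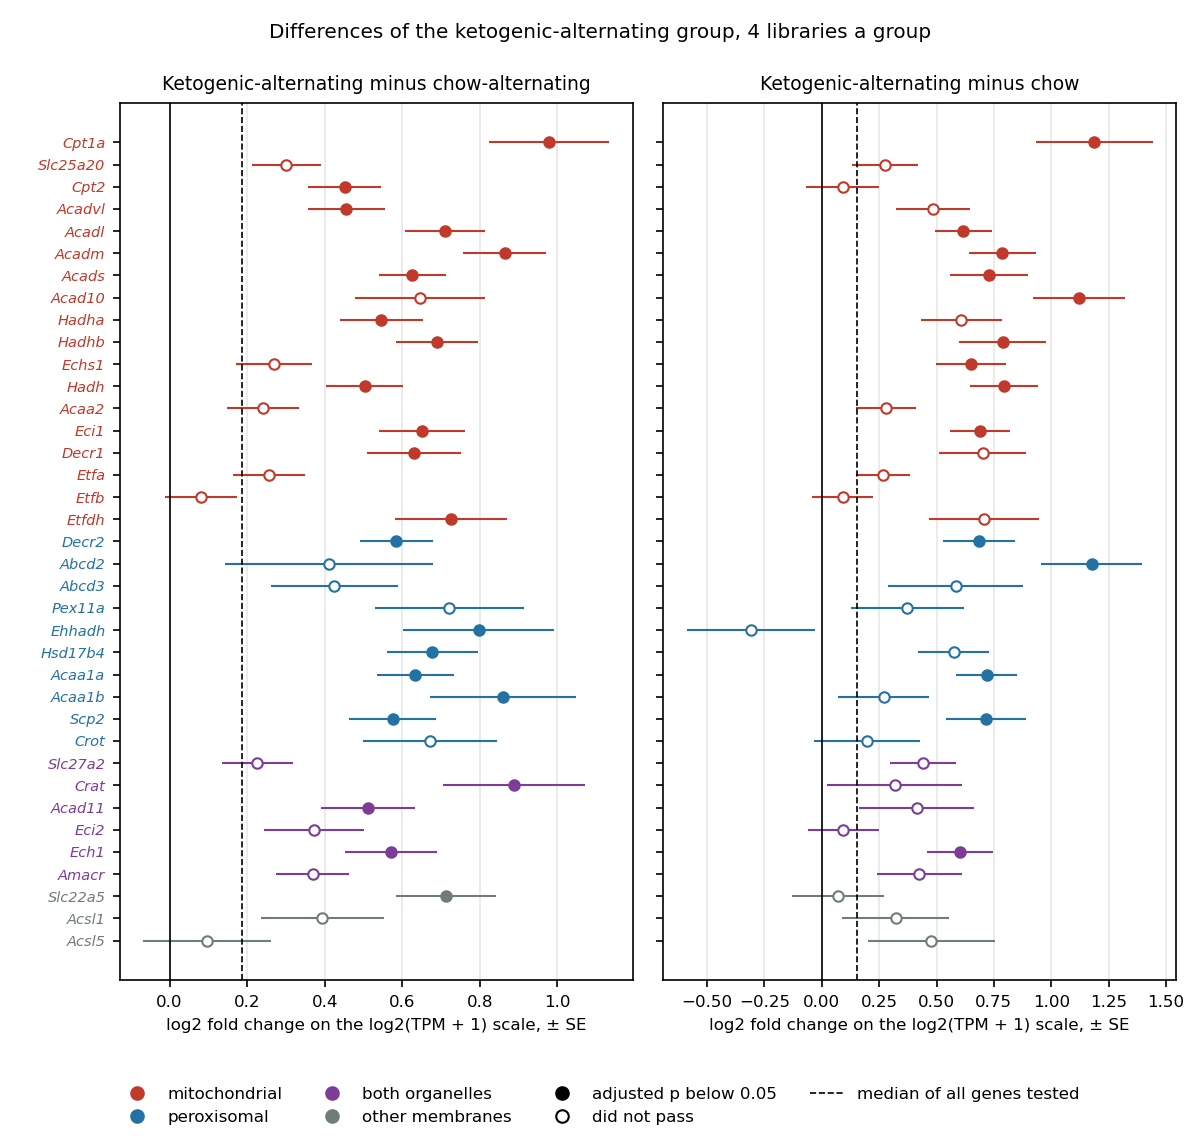
Log2 fold change of each member with its SE in ketogenic-alternating against chow-alternating (left) and against chow (right), with filled points at an adjusted p below 0.05 and the dashed line at the median of all genes tested (0.19 and 0.15). On the left 22 points are filled and all 37 lie above 0 (35 with median ratio scaling), and on the right 14 are filled and Ehhadh lies below 0.

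Against plain chow, the same ketogenic-alternating livers are compared with a diet low in fat throughout. Of 37 members 14 rose and 0 fell, where 5% of 11091 genes passed (3.67% higher and 1.33% lower). They were 9 of 18 mitochondrial members, 4 of 10 peroxisomal members and 1 of 6 of both organelles (Ech1). Cpt1a, Acad10 and Abcd2 reached a fold change of at least 2, against 2.32% of all genes. The median was 0.58 over members and 0.15 over all genes, 36 of 37 were above 0 (32 with median ratio scaling, where Slc22a5, Cpt2, Eci2, Etfb and Ehhadh were below), and 20 were separate and higher, as were 9.34% of all genes. The median over members was 0.363 without chow replicate 3 (34 above 0), and 0.289 without chow replicates 2 and 3 (29 above 0). All genes had 0.0693 and 0.0107 in the same fits.

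Cpt1a was at 183, 133, 68.9 and 140.1 TPM in chow, below all 4 ketogenic-alternating libraries (log2 fold change 1.19, SE 0.255, adjusted p = 0.0228). Acad10, an acyl-CoA dehydrogenase relative at a low level, had 22.8, 27.4, 24.9 and 17.9 TPM in ketogenic-alternating and 14.1, 9.48, 7.36 and 10.2 TPM in chow livers (log2 fold change 1.12, SE 0.2, adjusted p = 0.00965). Abcd2, a peroxisomal importer of very long chains and the least abundant member, had 14.97, 12.2, 12.04 and 7.39 against 4.74, 4.92, 3.16 and 5.28 TPM (log2 fold change 1.18, SE 0.219, adjusted p = 0.0115). These were the members with the largest differences, and the latter pair are low enough that log2(TPM + 1) understates the fold. Abcd2 was also uneven in the high-fat group, with 3.26, 6.25, 26.1 and 7.58 TPM, of which replicate 3 stood far above the rest.

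Acadm, at 353, 308, 266 and 386 TPM in chow, was lower there than in every ketogenic-alternating library (log2 fold change 0.79, SE 0.147, adjusted p = 0.0117). Hadh, at 412, 466, 446 and 441 TPM in ketogenic-alternating and 275, 279, 190.2 and 284 TPM in chow, differed by 0.79 on the log2 scale (SE 0.148, adjusted p = 0.0117). Acaa1a, at 239, 219, 183 and 223 TPM in chow, had 0.72 (SE 0.132, adjusted p = 0.011). Each of these was above its whole chow range in all 4 ketogenic-alternating libraries. The other members that rose were Eci1 (0.69, SE 0.132, adjusted p = 0.0133), Acadl (0.62, SE 0.124, adjusted p = 0.0172), Decr2 (0.68, SE 0.157, adjusted p = 0.0302), Acads (0.73, SE 0.17, adjusted p = 0.0325), Echs1 (0.65, SE 0.152, adjusted p = 0.0327) and Ech1 (0.60, SE 0.144, adjusted p = 0.0353). Hadhb and Scp2 rose as well, with adjusted p = 0.037 and 0.0395.

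These calls also rest on single libraries. Without ketogenic-alternating replicate 2 only Acad10 was called. Leaving out chow replicate 2 left 6 calls, chow replicate 4 or ketogenic-alternating replicate 1 left 8, ketogenic-alternating replicate 3 left 7, ketogenic-alternating replicate 4 left 9, and chow replicate 1 gave 22. Without chow replicates 2 and 3, which held over 33% of their TPM in 20 genes, Hadh alone was called, and median ratio scaling gave 10.

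Against the continuous high-fat group the members of the ketogenic-alternating livers did not pass the test. Limma called 0 of 37, with 22 members at an unadjusted p below 0.05 where 10% of 11108 genes had one and 0.036% were called. All 37 were above 0, with a median of 0.46 against 0.21 over all genes. With median ratio scaling the median was 0.236 and 32 were above 0, with Slc27a2, Acsl5, Echs1, Acaa2 and Etfb below. Without high-fat replicates 1 and 2, which held over 33% of their TPM in 20 genes, it was 0.268 (all genes 0.0407), again with 32 above 0. In 15 members the groups did not overlap, each higher in ketogenic-alternating livers, as for 6.3% of all genes. These included 11 of 18 mitochondrial and 1 of 10 peroxisomal members (Hsd17b4). The medians were 0.45 over mitochondrial and 0.51 over peroxisomal members, so fewer separate groups did not go with a smaller peroxisomal median.

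The member of smallest p was Slc22a5, at 9.25, 11.3, 14.8 and 20.8 TPM in high-fat livers against 26.8, 26.2, 28.1 and 30.5 TPM (log2 fold change 1.00, SE 0.216, adjusted p = 0.296). Acadm was at 284, 386, 395 and 384 TPM in high-fat livers (0.64, SE 0.155, adjusted p = 0.331) and Acads at 128, 111, 183 and 169 TPM (0.63, SE 0.17, adjusted p = 0.389). For Crat the high-fat values were 16.3, 30.1, 36.6 and 42.9 TPM against 46.9, 67.9, 70.6 and 51.8 TPM (0.95, SE 0.265, adjusted p = 0.411). All 4 genes were separate between the groups, and none of these differences passed over all genes. The high-fat libraries themselves varied widely: the median coefficient of variation of the members was 22.7% in high-fat and 20.7% in chow livers, against 12.3% in chow-alternating and 9.78% in ketogenic-alternating ones. Over genes with a group mean of at least 10 TPM it was 21.7%, 19.5%, 10.3% and 12.6%.

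**Figure D4:**
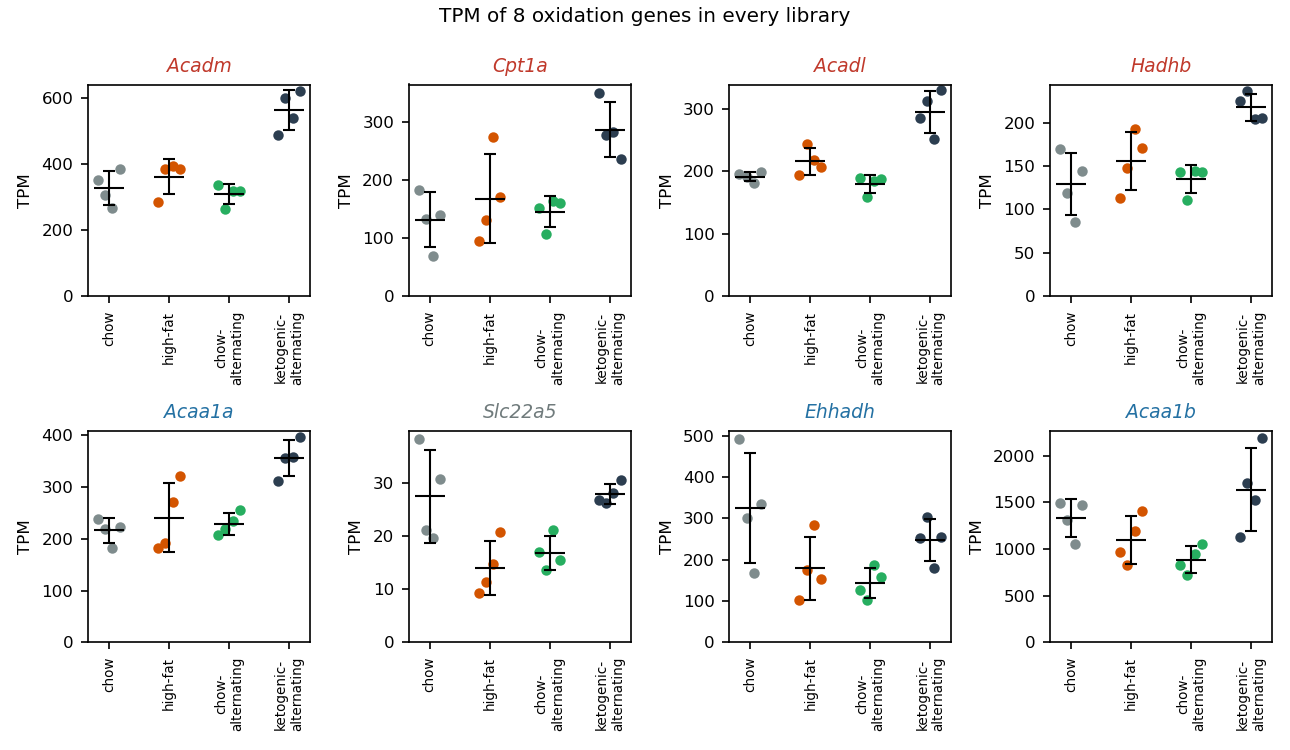
TPM of 8 members in every library (points) with group mean and SD (bars, n = 4). In the upper row and in Acaa1a the 4 ketogenic-alternating libraries lie above all 4 chow-alternating libraries, as Acadm does with 489.9 to 623 against 264 to 337 TPM, while Slc22a5, Ehhadh and Acaa1b reach chow levels that overlap those of the ketogenic-alternating group.

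Between the continuous high-fat diet and chow no member passed the test. Limma called 0 of 37, where 1.06% of 10960 genes passed, and 5 members had an unadjusted p below 0.05, as did 11.6% of genes. The median was 0.12 over members, 0.16 over mitochondrial and 0.11 over peroxisomal ones, against -0.05 over all genes. Single libraries turned these directions. Without chow replicate 3 the median was -0.0132 over members (18 of 37 above 0) and -0.104 over peroxisomal ones, and without high-fat replicate 4 the peroxisomal median was -0.0227. All genes moved too, with a median of -0.136 without chow replicate 3 and -0.0894 without high-fat replicate 4. The median over members ranged from 0.0284 to 0.228 when any library other than chow replicate 3 was left out, the lower value coming without replicate 4 and the higher without replicate 1 of the high-fat group. Slc22a5 had the smallest p, with 38.3, 21.1, 19.6 and 30.8 TPM in chow and 9.25, 11.3, 14.8 and 20.8 TPM in high-fat livers (log2 fold change -0.93, SE 0.275, adjusted p = 0.185), and the lowest chow library lay below the highest high-fat one. Hadh, at 308, 358, 436 and 352 against 275, 279, 190.2 and 284 TPM, was the member without overlap (0.51, SE 0.181, adjusted p = 0.28), as 2.49% of genes were on the higher side. Ehhadh, at 104, 175, 284 and 154 TPM in high-fat and 492, 302, 168 and 335 TPM in chow livers, had -0.85 (SE 0.343, adjusted p = 0.353), and Scp2 0.46 (SE 0.203, adjusted p = 0.41). In 1 fit of all 16 libraries Slc22a5 was called.

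Chow intervals in place of the continuous high-fat diet gave 0 called members as well, where 0.0459% of 10899 genes passed, and every member had an adjusted p of 1. No member had an unadjusted p below 0.05, which 4.15% of genes had. The median was -0.12 over the members and 0.02 over all genes, and 11 of 37 were above 0. The median over members also turned with 1 library, to 0.0285 with 19 above 0 without high-fat replicate 3, where all genes had 0.0941. It was -0.0163 without chow-alternating replicate 2 and from -0.251 to -0.0556 without any other single library. Without high-fat replicates 1 and 2 it was -0.337 with 3 above 0, where all genes had -0.137. Acadl, at 189, 159, 185 and 187 against 194, 245, 219 and 206 TPM in high-fat livers, was the member without overlap, lower with chow intervals as 1.24% of genes were (log2 fold change -0.26, SE 0.128). Scp2 (-0.32, SE 0.153), Decr2 (-0.29, SE 0.147) and Eci1 (-0.23, SE 0.129) were the others of smallest p, all with overlapping groups.

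Between the chow-alternating and the chow group 0 of 37 members were called, where 1.16% of 10862 genes passed, and 8 members had an unadjusted p below 0.05, as did 12.3% of genes. The median was 0.03 over members and -0.04 over all genes. Over members it was -0.107 without chow replicate 3 (10 of 37 above 0), -0.168 without chow replicates 2 and 3 (9 above 0), 0.135 without chow replicate 1, and 0.00609 to 0.0778 without any other single library. All genes had -0.117 without chow replicate 3, -0.177 without chow replicates 2 and 3, and 0.0316 without chow replicate 1. Ehhadh, which encodes the peroxisomal enzyme with hydratase and dehydrogenase activity and is a textbook PPAR alpha target, was at 126, 104, 186 and 157 TPM in chow-alternating and 492, 302, 168 and 335 TPM in chow livers (log2 fold change -1.11, SE 0.284, adjusted p = 0.105). The ranges met, because chow replicate 3 was below the highest chow-alternating library. Acaa1b, at 825, 722, 943 and 1050 against 1493, 1311, 1052 and 1473 TPM, was lower without overlap (-0.59, SE 0.154, adjusted p = 0.111), as 5.54% of genes were, the lowest chow and the highest chow-alternating library being nearly equal. Abcd2 (0.76, SE 0.255, adjusted p = 0.218) and Echs1 (0.38, SE 0.151, adjusted p = 0.32) were higher without overlap, as 2.94% of genes were, and Slc22a5 had -0.64 (SE 0.216, adjusted p = 0.221). Ehhadh and Acaa1b were called without chow replicate 3, Ehhadh alone with median ratio scaling, and Ehhadh, Slc22a5, Cpt2 and Pex11a without chow replicates 2 and 3.

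In 10 members the chow group came first or next after the ketogenic-alternating one. Chow was highest for Ehhadh and next after ketogenic-alternating for 9 members: Slc22a5, Slc25a20, Cpt2, Crat, Acad11, Eci2, Pex11a, Acaa1b and Crot. Over all genes, chow was highest in 26.6% and second in 24.9%. Second place was thus about as common among members as among genes, and first place was rarer. With median ratio scaling chow was highest for 4 members (Slc22a5, Cpt2, Eci2 and Ehhadh) and second for 7, against 33.4% and 17.1% of genes. The levels that follow are in TPM as deposited. The group means of Ehhadh were 324 ± 133 TPM (SD, n = 4) in chow, 248 ± 50.97 in ketogenic-alternating, 179 ± 75.9 in high-fat and 143 ± 36.2 in chow-alternating livers. Neighbours in this order overlapped, and ketogenic-alternating minus chow was -0.31 on the log2 scale (SE 0.279, adjusted p = 0.518). Acaa1b followed ketogenic-alternating 1636 ± 442, chow 1332 ± 204, high-fat 1100 ± 258 and chow-alternating 885 ± 142 TPM. Its ketogenic-alternating values were 1124, 1708, 1522 and 2190 TPM, the lowest of which lay inside the chow range. Crot followed the same order, with 607 ± 123, 541 ± 169.7, 429 ± 162 and 379 ± 68.4 TPM, and so did Cpt2, with 138 ± 9.73 against 131 ± 26.5 TPM. The patterns of Ehhadh and Acaa1b were picked out after their values were seen.

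For 24 members the high-fat group came next after the ketogenic-alternating one, as for 30.3% of all genes. They include the dehydrogenases Acadl, Acadm and Acads, both trifunctional subunits, Eci1, Decr1, Decr2, Ech1, Hsd17b4, Acaa1a and Scp2. Acadm, for example, had 564 ± 60.2 TPM in ketogenic-alternating, 362 ± 52.6 in high-fat, 328 ± 52.1 in chow and 309 ± 31.5 in chow-alternating livers, and the last 3 overlapped. The remaining 3 members, Acadvl, Etfa and Etfb, had the chow-alternating group next, with means within 1 SD of those of the chow and high-fat groups. The steadiest of these was Etfa, with 393 ± 12.3, 394 ± 25.7 and 396 ± 24.1 TPM outside the ketogenic-alternating group (474 ± 46.2).

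Levels per length differed widely between members. Scp2 (mean of 16 libraries 2316 TPM), Acaa1b (1238) and Slc27a2 (1107) were the most abundant, followed by Acaa2 (925) and Etfb (599). Slc22a5 (21.6), Acad10 (16.5) and Abcd2 (8.94) were the least abundant. Over the 16 libraries Cpt1a, at 183 TPM, was above Cpt2 at 119 and Slc25a20 at 131, but in chow alone their means were 131, 131 and 130 TPM. The thiolase Acaa2 was above Hadhb, at 159.6 TPM. All 37 members passed the filter of 1 TPM in at least 4 libraries in each of the 6 comparisons.

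The medians of mitochondrial and peroxisomal members are given with no test of their difference, since members are not replicates. In ketogenic-alternating against chow-alternating livers the median log2 fold change was 0.59 over 18 mitochondrial and 0.65 over 10 peroxisomal members. Against chow it was 0.67 and 0.58, or 0.428 and 0.235 without chow replicates 2 and 3 and 0.513 and 0.36 without chow replicate 3 alone. Against high-fat it was 0.45 and 0.51, or 0.232 and 0.288 with median ratio scaling and 0.281 and 0.249 without high-fat replicates 1 and 2. The difference of both medians, mitochondrial minus peroxisomal, ranged from -0.07 to 0.09 over the 6 comparisons. Counting the 6 members of both organelles as peroxisomal widened it to 0.24 against chow, and leaving out chow replicates 2 and 3 to 0.19. The ratio of peroxisomal to mitochondrial summed TPM was 1.103 ± 0.15 (SD, n = 4) in chow, 1.08 ± 0.0746 in high-fat, 0.943 ± 0.0701 in chow-alternating and 1.097 ± 0.0421 in ketogenic-alternating livers. The 2 alternating groups did not overlap in this ratio, at 0.851 to 1.005 and 1.053 to 1.152. Scp2 and Acaa1b make up most of the peroxisomal sum, and without them the ratio was 0.394 ± 0.0781, 0.33 ± 0.0471, 0.312 ± 0.0241 and 0.357 ± 0.0245, with overlap between the alternating groups. Within each compartment the members differed more than the compartments did, from 0.08 for Etfb to 0.98 for Cpt1a among mitochondrial and from 0.41 for Abcd2 to 0.86 for Acaa1b among peroxisomal members.

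The same libraries were lowest for most members of a group. Chow replicate 3 was the lowest of its group for 34 of 37 members, and for 59.8% of genes. High-fat replicate 1 was lowest for 29 members and 53.1% of genes, and chow-alternating replicate 2 for 32 members and 36.2% of genes. Chow replicate 3 and high-fat replicate 1 are among the libraries with over 33% of TPM in 20 genes. Chow-alternating replicate 2, with 31.46%, is not, and the 3 other libraries of its group had 29.82% to 30.69%. In the ketogenic-alternating group the lowest library was replicate 1 for 16 members and replicate 4 for 13.

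Single transcripts gave fewer calls than genes. Of 201 annotated transcripts of the members, 97 were tested in ketogenic-alternating against chow-alternating livers and 4 rose, where 0.461% of 18236 transcripts passed. They were the leading transcripts of Acadm (ENSMUST00000072697, log2 fold change 0.88, adjusted p = 0.0201), Acads (ENSMUST00000031524, 0.68, adjusted p = 0.0254), Acadl (ENSMUST00000027153, 0.71, adjusted p = 0.0321) and Decr2 (ENSMUST00000040907, 0.58, adjusted p = 0.0454). Against chow, 4 of 109 rose (1.1% of 18698 transcripts), those of Acadm (adjusted p = 0.0449), Eci1 (ENSMUST00000024946, adjusted p = 0.0456), Acadl (adjusted p = 0.0475) and Hadh (ENSMUST00000029610, adjusted p = 0.0475). With median ratio scaling, without the filter, without the trend or with a replicate block, 0 were called in both of these comparisons. Leaving out 1 library at a time gave 0 or 1 called transcripts against chow-alternating and 0 to 5 against chow. In 29 of 37 members 1 transcript held at least 90% of the gene's TPM. In the others the division between isoforms was unsteady, as in Etfdh, whose transcript ENSMUST00000120992 was listed at 0 in 6 libraries and at 149.8, 49.3, 127 and 0 TPM in the ketogenic-alternating ones, so the gene level is used throughout.

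Other genes around the pathway were grouped in 4 lists, to be read against all genes, of which 4.31% rose against chow-alternating (median 0.19) and 3.67% against chow (median 0.15). Of 27 tested other enzymes and transporters of oxidation and ketone body synthesis, 5 rose and 1 fell against chow-alternating, with a median of 0.30. Bdh1, the dehydrogenase that makes hydroxybutyrate, had 323 ± 16.3 against 139 ± 19.9 TPM (log2 fold change 1.22, adjusted p = 0.00037) and Slc27a1, a fatty acid transport protein, 21.99 ± 3.42 against 10.4 ± 1.75 TPM (1.02, adjusted p = 0.00719). Lonp2, the peroxisomal protease, rose by 0.65 (adjusted p = 0.0264) and Acad12 rose too, while Slc27a5, which also activates bile acids, was the one that fell. Against chow, 6 of 27 rose, with Bdh1 (1.16, adjusted p = 4.62e-04), Hsd17b10 (1.06, adjusted p = 0.00136), Acad12 (1.497, adjusted p = 0.00912) and Slc27a1 (1.11, adjusted p = 0.0103) first. Hsd17b10, a mitochondrial dehydrogenase, also rose in high-fat against chow (0.98, adjusted p = 0.0109) and in chow-alternating against chow livers (0.76, adjusted p = 0.00881), where no member passed.

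Of 20 peroxisome biogenesis and membrane genes, Pex16 (0.49, adjusted p = 0.00914) and Pex6 (0.40, adjusted p = 0.0412) rose against chow-alternating, with a median of 0.23 over the list, close to the 0.19 of all genes. Against chow, Pex16 (0.49, adjusted p = 0.0465) and Pxmp2 (0.70, adjusted p = 0.0093) rose and Pxmp4 fell by 0.71 (adjusted p = 0.0113). Pxmp2, a channel of the peroxisomal membrane, also rose against chow in high-fat (0.77, adjusted p = 0.0402) and chow-alternating livers (0.69, adjusted p = 0.0226). Of 19 regulators of oxidation, Pparg, a nuclear receptor of fat storage, rose from 4.69 ± 1.04 TPM with chow intervals to 12.5 ± 1.71 TPM with ketogenic ones (1.26, adjusted p = 0.00345), as did Rxra, the partner of the PPARs (0.63, adjusted p = 0.0435). Ppara itself was at 86.96 ± 36.4 against 41.6 ± 13.6 TPM (1.02, SE 0.313, adjusted p = 0.08) and did not pass, and is named for its role after its values were seen. Against chow, Pparg alone of these 19 rose (1.13, adjusted p = 0.00308). Of 24 tested PPAR alpha targets outside the members, 10 rose against chow-alternating, with a median of 0.61, led by Cidec (3.44, adjusted p = 0.00037), Vnn1 (1.74, adjusted p = 0.000522), Cd36 (1.89, adjusted p = 0.00294) and Fgf21 (2.87, adjusted p = 0.0089). Against chow 6 of 24 rose, with a median of 0.41. Against high-fat 0 genes of any of these lists were called. The medians there were 0.189 over other enzymes, 0.252 over peroxisome biogenesis, 0.356 over regulators and 0.594 over PPAR alpha targets, against 0.207 over all genes. The list results are given only for the pairwise fits of TPM as deposited. They are not given with other scaling or with libraries left out, where the calls of the members moved.

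Markers of the cells of liver and its surroundings were read in the same fits. Against chow-alternating, 0 of 10 hepatocyte markers were called (median -0.16), and their summed level was 80580 to 87560 TPM in ketogenic-alternating and 98780 to 108400 TPM in chow-alternating livers, opposite in direction to the members. Resident macrophage markers summed to 122 to 427 TPM against 136 to 188 TPM (0 of 7 called, median 0.78). Sinusoidal endothelial markers summed to 120.2 to 194 against 78.7 to 118 TPM, with Clec4g called higher of 6. Adipocytes share fatty acid enzymes with liver. Of adipocyte markers, Lep was at 0 in both groups and 3 of 5 were below 1 TPM. Their sum was 23.65 to 59.05 against 9.17 to 14.4 TPM, with Cfd called higher of 2 tested. Muscle and brown fat markers summed to 1.97 to 7.02 against 3.61 to 6.45 TPM, with Ucp1 and Myh7 at 0 in both groups. None of the tested markers of recruited macrophages (4 of 7 tested), T and NK cells (1 of 6), B and plasma cells (3 of 5), neutrophils (2 of 5), stellate cells (7 of 7), cholangiocytes (3 of 5) and red blood cells (5 of 5) was called. Their medians in the same order were 0.0228, -0.246, -0.329, -0.256, 0.412, -0.0817 and -0.865, and that of sinusoidal endothelial markers was 0.544. Some of these were thus as far from 0 as the median over members. Against chow, 3 of 10 hepatocyte markers passed, 1 higher and 2 lower, Cfd was again higher, and Cd9 and Cox7a1 were lower. Medians there were 0.115 over hepatocyte, 0.767 over resident macrophage, 0.585 over stellate and 0.499 over sinusoidal endothelial markers. Those of recruited macrophages, B and plasma cells, neutrophils, cholangiocytes and red blood cells were -0.0499, -0.0488, 0.343, -0.162 and -0.0295. The part of these cells in the members' differences was not tested.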

How the data were processed

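RNA sequencing of 16 liver libraries, 4 per diet group, was read from the deposited gene and transcript tables, which hold TPM values made by the authors (each column sums to 1000000). Reads were aligned with HISAT2 to mm10 and quantified with RSEM 1.1.17, and the authors compared groups with edgeR 3.14.0, per the submitters' processing notes. The series' design text names FPKM as the unit, so the test planned for FPKM or TPM was applied to TPM. For each pair of groups, limma (version 3.58.1, run under R 4.3.3, with its intensity trend) compared log2(TPM + 1) over the 8 libraries concerned, two-sided and without covariates. A gene entered when 4 or more of these libraries reached 1 TPM, and p-values were adjusted by Benjamini-Hochberg over every gene that entered. The fit was also run on simulated data with independent noise for each gene. Such data lack the joint shifts of whole libraries seen here, so they cannot show how stable the calls are. All fold changes use that log2(TPM + 1) scale.

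The members, compartments, pathway lists and markers were chosen with earlier results of these data known, and medians over lists carry no test. Of the 37 members all are described by level, and full statistics are given for at most 12 called members per comparison of smallest adjusted p, or for up to 4 of smallest p where none was called, and for up to 4 called genes per pathway list. A few genes counted in the pathway lists are not reported here by name. Comparisons that share a group share its libraries. Alternatives were another pseudocount, no filter, median ratio scaling, 1 fit of all 16 libraries, no trend, a replicate block, each library left out, and the libraries over 33% in 20 genes left out. The same alternatives for transcripts were added after the data were seen. Deviations of same-numbered libraries from their group means gave 24 correlations, from -0.596 to 0.404. In 0 of 6 comparisons were all of them above 0.1, so the numbers were not taken as pairs. Between chow-alternating and high-fat livers, replicates 3 and 4 had 0.169 and 0.404, and 2 libraries correlated best with their own number. Positions are from GENCODE vM21 on GRCm38 (mm10), and promoters from RefSeq.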

Additional observations from a re-analysis of the deposited data

Results flagged for a closer look

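In each of 148 sets of 4 values (37 members in 4 groups), the gap of the highest or lowest library to its nearest neighbour was compared with the range of the group. It passed Dixon's 95% critical value for 4 samples in 9 sets, and chance flags about 1 in 20 groups. In all 9 the outlying library was the lowest, and 5 of them were the same library.

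Chow-alternating replicate 2 was far below the other 3 libraries of its group for Acadl (159.079 TPM against 184.528 to 188.648, with the 4 values given in the report), Hadha (113.88 TPM), Hadhb (110.745 TPM), Hsd17b4 (186.328 TPM) and Scp2 (1623.45 TPM). Without this library, 13 in place of 22 members were called in ketogenic-alternating against chow-alternating livers. Acadl, Hadha, Hadhb and Hsd17b4 were among the 13, and Scp2 was not.

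Chow replicate 3, which had the largest share of mitochondrially encoded RNA, was far below its group for Echs1 (148.598 TPM against 218.771 to 220.611) and Hadh (190.232 TPM). High-fat replicate 1, among the libraries with over 33% of TPM in 20 genes, was far below its group for Acadm (283.627 TPM) and Cpt2 (86.568 TPM).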

How the results depend on the processing

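Of the 22 and 14 members called against chow-alternating and chow, none changed direction in any alternative. Called members in ketogenic-alternating against chow-alternating livers numbered 14 without the filter, 4 with median ratio scaling, 4 in 1 fit of all 16 libraries and 10 to 26 when 1 library was left out. Against chow they numbered 7 without the filter, 1 without the libraries over 33% in 20 genes and 1 to 22 when 1 library was left out. Between high-fat and chow 1 was called in the fit of 16 libraries. Between chow-alternating and chow 1 was called with median ratio scaling, 4 without the libraries over 33%, and 0 to 2 when 1 library was left out. With the replicate block 9 members were called against chow-alternating and 10 against chow. In none of these comparisons with the ketogenic-alternating group did a library correlate best with its own number, and calls lost under the block are not read as weaker effects.

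Called transcripts fell from 4 to 0 against chow-alternating and from 4 to 0 against chow without the filter, with median ratio scaling, without the trend and with the replicate block. Against chow they were 0 without the libraries over 33% and 9 in the fit of 16 libraries, in which 1 was called between chow-alternating and chow. With 1 library left out they ranged from 0 to 1 against chow-alternating and from 0 to 5 against chow.

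The mitochondrial minus peroxisomal median moved from 0.09 to 0.24 against chow when members of both organelles were counted as peroxisomal and to 0.19 without the libraries over 33%. Between ketogenic-alternating and high-fat it moved from -0.06 to 0.0314 without those libraries, and ranged from -0.18 to 0.0088 with 1 library left out. Between chow-alternating and high-fat it moved from 0.04 to -0.0367 with members of both organelles counted as peroxisomal, and ranged from -0.0494 to 0.0908 with 1 library left out. The cause of these shifts was not tested. No count gives the depth of a library, so precision rests on 4 libraries per group.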
